A study of Homo sapiens with 6 samples.

Results

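The kinesin motor genes were examined in HEK293 cells after knockdown of the lncRNA *HSALNG0134318*. Members were the genes whose symbol is KIF followed by a number and an optional letter, with at least 10 reads in each of the 6 cultures, which left 34 of the 39 such symbols among the 26485 genes of the count table. HEK293 cells are an established line of embryonic kidney origin. The 3 knockdown cultures (numbered 1, 4 and 5 and called knockdown replicates 1, 2 and 3) received a Smart Silencer against the lncRNA by transient transfection. This reagent combines RNA interference with antisense degradation of the transcript. The 3 control cultures (numbered 10, 11 and 1, control replicates 1, 2 and 3) carry the tag NC and the genotype WT, and what they were transfected with is not given in the sources used here. All 6 cultures are of the same line, and the labels give no other allele or agent. The level of *HSALNG0134318* was not analysed here, so the silencing itself was not checked. Total counts ran from 13900965 to 16869948, and the 34 kinesin genes took from 0.334% to 0.390% of them. HEK293 transcripts *VIM*, *KRT8*, *KRT18*, *PAX2*, *NEFL* and *NEFM* were found in every culture, whereas *PTPRC*, *PECAM1* and *ALB* had at most 5 reads, *UMOD* had 0, and *COL1A1*, listed as a fibroblast marker, had from 571 to 699. The controls lay further from each other than the knockdown cultures did from each other. Root mean square distances were 0.369 log2 units between control replicates 1 and 3, and 0.445 and 0.485 between control replicate 2 and these. Among the knockdown cultures they ran from 0.271 to 0.315. Between groups, they ran from 0.397 to 0.413 for control replicate 3, from 0.467 to 0.497 for control replicate 1 and from 0.527 to 0.5455 for control replicate 2. Control replicate 3 thus lay nearer to every knockdown culture than to control replicate 2.

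Kinesins are motor proteins that use ATP to step along microtubules or to take microtubule ends apart. Some members of the family build and move the mitotic spindle and complete cytokinesis, and their transcripts peak as cells enter division. Others carry vesicles, mitochondria and other cargo towards the cell periphery, and in the kidney and elsewhere several kinesins also serve the primary cilium. The members were therefore separated into 12 mitotic genes, 15 transport genes and 7 ciliary or other genes. The study itself lists *KIF14* among its CAKUT genes (genes of malformations of the kidneys and urinary tract present from birth) and *KIF26B* among the genes of the 1q44 deletion.

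After knockdown, 2 kinesin genes fell and 3 rose with edgeR (quasi-likelihood test, Benjamini-Hochberg adjusted p under 0.05). *KIF5B* and *KIF1A* were lower, *KIF1C*, *KIF3C* and *KIF9* were higher, and 29 members were not called. The called share was 14.7% of the members against 10% of the 14877 genes tested, 4.64% being lower and 5.40% higher. The groups did not overlap in 12 members (6 lower and 6 higher), and in 32.2% of all genes tested (15.8% lower and 16.4% higher). Both shares lay near those of the whole table and are no result about kinesin genes as a group. By class, 4 of 15 transport genes, 0 of 12 mitotic genes and 1 of 7 ciliary or other genes were called, counts that were not tested against each other. With edgeR, 4 of the 12 mitotic genes had an unadjusted p under 0.05, against 3996 of all 14877 genes tested. DESeq2 and limma-voom also called 0 mitotic genes. A correction for GC content and length of the transcripts called 3 of them lower. So did leaving out control replicate 2, and leaving out control replicate 3 called 1 lower. The median size of the log2 fold change, whatever its sign, was 0.07 in the mitotic class, 0.22 in the transport class and 0.28 in the ciliary or other class, and 0.20 over all genes tested. The signed medians were -0.04, -0.08 and 0.28, against -0.02 over all genes. All values come from whole cultures, in which fewer cells that express a gene and less RNA per cell cannot be told apart.

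**Figure D1:**
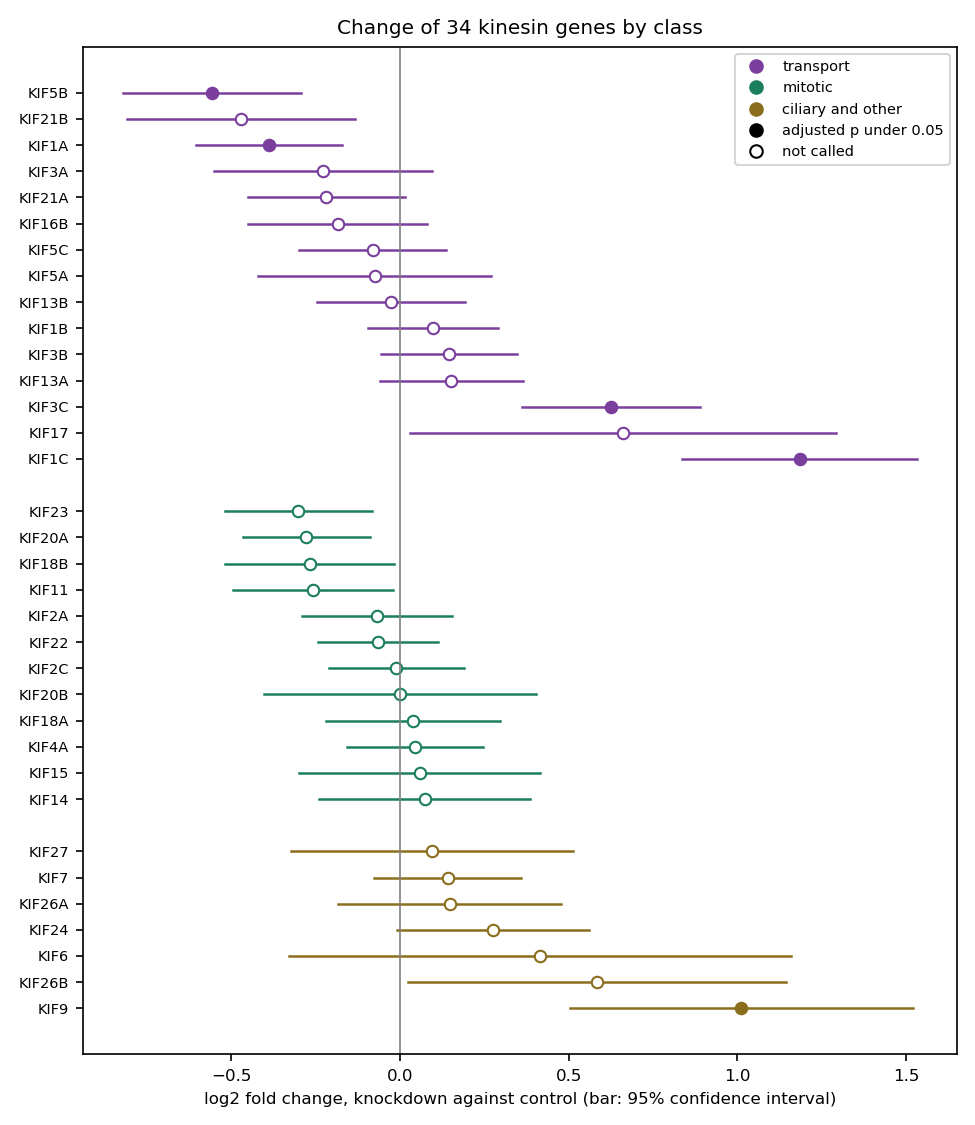
Log2 fold change of knockdown against control for the 34 kinesin genes (horizontal axis), with bars for the 95% confidence interval (CI) and filled points for genes with an adjusted p under 0.05. The called transport genes lie on both sides of 0, from -0.56 for KIF5B to 1.19 for KIF1C, while the mitotic genes lie between -0.30 and 0.07.

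Levels were compared between genes as CPM (read counts scaled to the effective library size) per kilobase of the canonical transcript in GENCODE release 44 on hg38. In the control cultures *KIF5B*, the ubiquitous heavy chain of conventional kinesin, had the highest mean level, 93.6 ± 14.2 CPM per kb (SD, n = 3). *KIF23*, whose product bundles the midzone microtubules in cytokinesis, followed at 87.1 ± 9.71, and the ranges of both genes overlapped. *KIF22*, a chromosome-arm motor, reached 72.5 ± 2.81, *KIF20A* 57.5 ± 1.34 and *KIF11* 55.0 ± 5.42 CPM per kb. The next places were held by *KIF2C*, *KIF4A*, *KIF18B*, *KIF20B*, *KIF2A* and *KIF14*, all mitotic, between 44.2 and 18.7 CPM per kb. The transport genes other than *KIF5B* started with *KIF3A* at 18.2 ± 4.18, and the lowest members were *KIF17* (0.548 ± 0.201), *KIF6* (0.189 ± 0.0898) and *KIF26B* (0.143 ± 0.0118). Of the 33 neighbouring pairs in this order, 24 had overlapping control ranges, so that most neighbours could not be ranked.

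**Figure D2:**
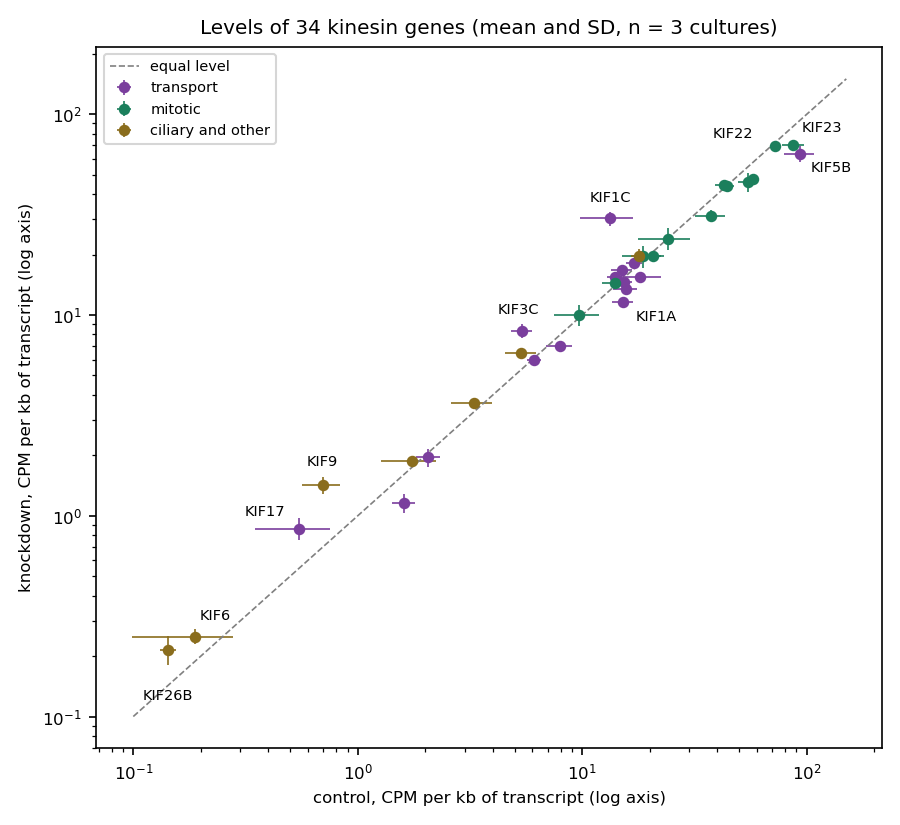
Level of each kinesin gene in control (horizontal) and knockdown (vertical) cultures in CPM per kb of transcript, both on log axes, as mean and SD of 3 cultures, with a dashed line of equal level. KIF1C moves furthest above the line, from 13.3 to 30.3 CPM per kb, and KIF5B falls below it, from 93.6 to 63.6.

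The other 5 symbols fell short of the minimum count. *KIF12* lay just outside it, with 12, 6 and 9 reads in knockdown replicates 1, 2 and 3 and 8, 15 and 10 in the controls. *KIF6* and *KIF26B* lay just inside, with lowest counts of 19 and 26. *KIF19* had 25 reads in all, *KIF25* had 25, *KIF4B* had 11 and *KIF2B* had 0. *KIF4B* is a near-identical intronless copy of *KIF4A*, so the few reads given to it cannot be assigned with certainty.

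The sequences before the start sites, which the counts did not enter, are shown next because the mitotic class shared letters there that few transport genes held. RefSeq promoters on GRCh38.p14, which cover 250 bases before and 50 after each start, were found for 29 of the 34 members, in 37 windows. Searched on both strands for CCAAT, the letters of the box that the factor NF-Y binds, and for TTTGAA, the letters of the CHR element of cell cycle genes, 7 of 13 mitotic windows (53.8%) held both, against 1 of 17 transport windows (5.88%), 0 of 7 ciliary or other windows and 5.9% of all 35116 windows of the same length. CCAAT, with or without TTTGAA, was found in 69.2% of the mitotic windows and in 34.6% of all windows, and TTTGAA in 61.5% and 15.2%. The mitotic windows with both were those of *KIF4A*, *KIF11*, *KIF14*, *KIF18A*, *KIF18B*, *KIF20B* and *KIF23*, and the transport window was that of *KIF5B*. No window of *KIF1A*, which was called lower, or of *KIF1C*, *KIF3C* and *KIF9*, which were called higher, held either set of letters. The 7 mitotic genes with both had log2 fold changes from -0.30 (*KIF23*) to 0.07 (*KIF14*). Whether the letters go with a change was not tested. The windows below show this arrangement in 3 mitotic genes and in *KIF5B*, and its absence in *KIF1C*. Capitals mark CCAAT and TTTGAA or their reverse complements ATTGG and TTCAAA. They lie at chrX:70289854-70290153 (plus strand) for *KIF4A*, chr10:92592880-92593179 (plus) for *KIF11*, chr15:69414099-69414398 (plus) for *KIF23*, chr10:32056376-32056675 (minus) for *KIF5B* and chr17:4997700-4997999 (plus) for *KIF1C*, each printed 5′ to 3′ on the strand of the gene.
KIF4A: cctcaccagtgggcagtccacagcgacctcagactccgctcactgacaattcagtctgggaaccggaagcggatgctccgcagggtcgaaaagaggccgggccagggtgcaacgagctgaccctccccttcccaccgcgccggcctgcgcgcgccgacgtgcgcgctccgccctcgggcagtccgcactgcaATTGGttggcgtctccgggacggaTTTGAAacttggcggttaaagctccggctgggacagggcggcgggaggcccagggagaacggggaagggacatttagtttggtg
KIF11: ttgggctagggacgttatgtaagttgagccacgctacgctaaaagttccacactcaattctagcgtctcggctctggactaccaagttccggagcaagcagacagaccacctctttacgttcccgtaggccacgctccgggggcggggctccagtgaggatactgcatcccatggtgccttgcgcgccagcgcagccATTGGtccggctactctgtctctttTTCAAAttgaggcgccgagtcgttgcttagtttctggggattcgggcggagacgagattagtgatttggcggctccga
KIF23: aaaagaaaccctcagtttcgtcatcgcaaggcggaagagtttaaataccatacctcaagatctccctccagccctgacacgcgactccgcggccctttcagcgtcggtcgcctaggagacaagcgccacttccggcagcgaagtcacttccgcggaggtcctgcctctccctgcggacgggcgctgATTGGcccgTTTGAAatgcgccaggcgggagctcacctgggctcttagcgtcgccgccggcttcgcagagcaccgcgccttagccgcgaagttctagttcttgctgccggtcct
KIF5B: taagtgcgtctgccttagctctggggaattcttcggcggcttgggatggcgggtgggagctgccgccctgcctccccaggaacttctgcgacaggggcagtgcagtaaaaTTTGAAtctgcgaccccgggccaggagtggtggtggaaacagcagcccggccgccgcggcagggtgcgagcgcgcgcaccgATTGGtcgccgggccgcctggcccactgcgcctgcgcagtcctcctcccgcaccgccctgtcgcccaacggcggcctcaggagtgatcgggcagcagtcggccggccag
KIF1C: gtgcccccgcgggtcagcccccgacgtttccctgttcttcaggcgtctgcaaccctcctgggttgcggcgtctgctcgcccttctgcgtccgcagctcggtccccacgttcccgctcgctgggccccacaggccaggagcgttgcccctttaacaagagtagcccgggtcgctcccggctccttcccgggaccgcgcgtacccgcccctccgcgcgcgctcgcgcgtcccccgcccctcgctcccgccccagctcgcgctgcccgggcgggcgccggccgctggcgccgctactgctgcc

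Counted from the start site, the CCAAT letters, on either strand, began at base -58 and the TTTGAA letters at base -34 in *KIF4A*, at -53 and -28 in *KIF11*, and at -64 and -55 in *KIF23*. In *KIF5B* the order was the other way, with TTTGAA at -140 and CCAAT at -59. A match of letters describes these windows and does not show that a factor binds there.

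Among the transport kinesins, the heavy chains of conventional kinesin are encoded by *KIF5A*, *KIF5B* and *KIF5C*, of which *KIF5A* and *KIF5C* are mainly neuronal. *KIF5B* (chromosome 10, 32009015 to 32056425, minus strand, hg38) had 5033, 5919 and 5879 normalized counts in knockdown replicates 1, 2 and 3, and 8684, 6846 and 9248 in control replicates 1, 2 and 3. Normalized counts are scaled to the mean effective library size. All knockdown cultures were below all controls, and control replicate 2 was the nearest to them. The mean fell from 8260 ± 1256 to 5610 ± 501 (SD, n = 3), or to 67.9% of the control, with a log2 fold change of -0.56 (SE 0.12, 95% CI -0.82 to -0.29, edgeR adjusted p = 0.0143). This call was lost when knockdown replicate 1 (adjusted p of 0.0855), knockdown replicate 2 (0.0513), knockdown replicate 3 (0.0564) or control replicate 1 (0.0654) was left out, whereas the log2 fold change stayed between -0.68 and -0.46. *KIF5C* had 1522 ± 125 normalized counts after knockdown and 1611 ± 136 in the controls, and *KIF5A* had 170 ± 17.5 and 179 ± 21.8. Neither was called, with log2 fold changes of -0.08 (95% CI -0.30 to 0.14) and -0.08 (-0.42 to 0.27). Per kilobase, the 3 genes summed to 80.1 ± 6.72 CPM after knockdown and 111 ± 15.4 in the controls, without overlap. The share of *KIF5B* in this sum was 78.8%, 79.6% and 79.7% in the knockdown cultures and 83.8%, 82.9% and 85.8% in the controls, while that of *KIF5C* was between 17.9% and 18.4% after knockdown and between 12.6% and 15.1% in the controls.

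The *KIF1* genes encode motors for synaptic vesicle precursors, mitochondria and other membrane cargo. *KIF1C* (chromosome 17, 4997950 to 5028401, plus strand), a widely expressed carrier of vesicles and mRNAs, had 3942, 3471 and 3418 normalized counts in the knockdown cultures and 1319, 1372 and 2073 in control replicates 1, 2 and 3. The groups were far apart, and control replicate 3 was the highest control. Its mean rose from 1588 ± 421 to 3610 ± 289, which is 2.27 times the control, with a log2 fold change of 1.19 (SE 0.16, 95% CI 0.84 to 1.53, edgeR adjusted p = 0.00142). *KIF1C* was called in all 14 alternative settings, with adjusted p from 7.84e-12 to 0.0129. *KIF1A* (chromosome 2, 240713761 to 240824293, minus strand), the main carrier of synaptic vesicle precursors in neurons, changed in the other direction. It had 1513, 1634 and 1636 normalized counts after knockdown and 2259, 2170 and 1832 in the controls, with control replicate 3 nearest to the knockdown cultures. The mean was 76.4% of the control, with a log2 fold change of -0.39 (SE 0.10, 95% CI -0.61 to -0.17, edgeR adjusted p = 0.0298). The call of *KIF1A* was lost without knockdown replicate 1 (adjusted p of 0.128), 2 (0.107) or 3 (0.11) and without control replicate 1 (0.105), and it was also lost with the replicate number as a block (0.0526). *KIF1B*, which moves mitochondria and vesicles, had 2978 ± 32.9 and 2782 ± 230 normalized counts and was not called (log2 fold change 0.10, 95% CI -0.10 to 0.29). The share of *KIF1C* in the summed level per kilobase of the *KIF1* genes was 53.0%, 49.4% and 48.6% after knockdown and 24.0%, 26.7% and 36.7% in the controls. That of *KIF1A* was between 17.6% and 20.2% after knockdown and between 28.1% and 36.6% in the controls. The share of *KIF1B*, which was not called, was between 29.3% and 31.2% after knockdown and between 35.2% and 40.3% in the controls. A share also falls when another gene of the sum rises, as *KIF1C* did. The sum itself was 60.2 ± 1.96 CPM per kb after knockdown and 45.6 ± 2.22 in the controls, also without overlap.

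The *KIF3* genes encode the motors of heteromeric kinesin, which *KIF3A* and *KIF3B* form together with the adaptor *KIFAP3* to drive anterograde transport in cilia, while *KIF3C* pairs with *KIF3A*. *KIF3C* (chromosome 2, 25926598 to 25982749, minus strand) had 709, 610 and 687 normalized counts in the knockdown cultures and 434, 388 and 481 in the controls. Every knockdown culture was above every control. Its mean rose from 434 ± 46.1 to 669 ± 52.0, a log2 fold change of 0.62 (SE 0.12, 95% CI 0.36 to 0.89, edgeR adjusted p = 0.00856). The call was lost without knockdown replicate 1 (adjusted p of 0.0501) or 3 (0.0531). *KIF3A* had 1386, 1518 and 1505 normalized counts after knockdown and 1965, 1266 and 1939 in the controls, so that control replicate 2 lay below all knockdown cultures. Its log2 fold change was -0.23 (edgeR adjusted p = 0.35), and -0.41 without control replicate 2, where it was called lower (adjusted p of 0.00299). *KIF3B* had a log2 fold change of 0.15 and was not called. The share of *KIF3C* in the summed level per kilobase of the *KIF3* genes was between 19.6% and 22.3% after knockdown and between 13.6% and 15.4% in the controls. Their sum, 39.3 ± 0.461 CPM per kb after knockdown and 37.5 ± 5.42 in the controls, overlapped between groups. For all of these sums and shares, an exact two-sided permutation test of 3 against 3 cultures cannot go below 0.1, so none was tested.

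**Figure D3:**
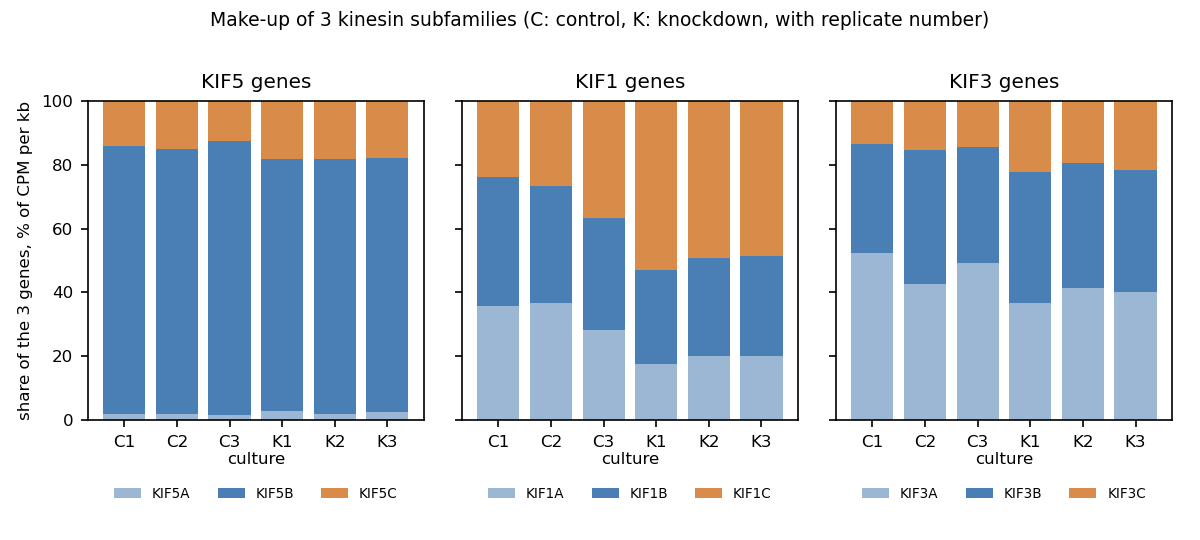
Share of each gene in the summed CPM per kb of the KIF5, KIF1 and KIF3 genes (vertical axis, percent), with a stacked bar for each control (C) and knockdown (K) culture and its replicate number. KIF1C takes 48.6% to 53.0% of the KIF1 level after knockdown and 24.0% to 36.7% in the controls.

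The remaining transport genes were not called. *KIF21B* and *KIF21A*, motors that also restrain microtubule growth, had log2 fold changes of -0.47 (edgeR adjusted p = 0.0772) and -0.22 (adjusted p of 0.213). Without control replicate 2, both were called lower, at adjusted p of 0.0288 and 0.0342, and *KIF21B* was also called lower with the GC and length correction (0.0309). *KIF17*, a motor of neuronal dendrites and cilia, had between 44.01 and 55.29 normalized counts after knockdown and between 24.1 and 46.3 in the controls, the highest being control replicate 3, without which it was called higher (adjusted p of 0.0373). *KIF13A*, *KIF13B* and *KIF16B*, which act on endosomes and other membranes, had log2 fold changes of 0.15, -0.03 and -0.19.

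No mitotic kinesin passed the threshold. The 3 with the smallest p were *KIF20A*, *KIF23* and *KIF11*, and all had lower means after knockdown. *KIF20A*, which brings the chromosomal passenger complex to the central spindle, had 2345, 2232 and 2048 normalized counts in the knockdown cultures and 2616, 2679 and 2741 in the controls. The groups did not overlap, and the log2 fold change was -0.28 (SE 0.09, 95% CI -0.47 to -0.09, edgeR adjusted p = 0.0645). *KIF23* had 3653, 4018 and 3997 normalized counts after knockdown and 4854, 4233 and 5298 in the controls. These did not overlap either, and control replicate 2 was again the lowest control, with a log2 fold change of -0.30 (SE 0.10, edgeR adjusted p = 0.0791). *KIF11*, the plus-end motor that pushes the spindle poles apart, had 3027, 3753 and 3625 after knockdown and 4352, 3677 and 4416 in the controls, with control replicate 2 inside the knockdown range. Its log2 fold change was -0.26 (SE 0.11, edgeR adjusted p = 0.153). Without control replicate 2, *KIF20A*, *KIF23* and *KIF11* were called lower (adjusted p of 0.0292, 0.00357 and 0.0175), and so they were after each library was adjusted for GC content and length of the transcripts (0.00757, 0.0132 and 0.0432). The log2 fold changes after that adjustment were -0.30, -0.27 and -0.21, and the number of genes called lower over the whole table went from 690 to 1434. *KIF18B*, a regulator of astral microtubules, had a log2 fold change of -0.27 (edgeR adjusted p = 0.16) and was called lower without control replicate 3 (0.0302).

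The other mitotic kinesins lay between -0.07 and 0.07 on the log2 scale. They were *KIF2A* and *KIF2C*, which depolymerize microtubules, *KIF4A*, which limits the central spindle, *KIF14* and *KIF20B* of cytokinesis, *KIF15*, a second spindle motor beside *KIF11*, *KIF18A*, which dampens chromosome movement, and *KIF22*. For 10 of the 12 mitotic genes the 95% CI lay within 0.5 of 0 on the log2 scale. *KIF14*, the CAKUT gene among them, had 1847, 2265 and 2347 normalized counts after knockdown and 2343, 1593 and 2206 in the controls. These values were interleaved, and the log2 fold change was 0.07 (95% CI -0.24 to 0.38, edgeR adjusted p = 0.787). The summed normalized counts of the 12 genes were 26753 ± 1300 after knockdown and 29189 ± 2510 in the controls, and the ranges overlapped. Control replicate 2 was the lowest control in 8 of the 12 mitotic and in 12 of the 15 transport genes. The median GC content of the transcripts was 41.3% in the mitotic class, 48.6% in the transport class and 48.6% over all genes tested with a known value. Over all genes, those with a GC content from 29.8% to 40.9% had a median log2 fold change of -0.09. Those from 40.9% to 45.7%, the range that holds the mitotic median, had one of -0.02. The mitotic genes in the lower range were *KIF11*, *KIF2A*, *KIF14*, *KIF18A* and *KIF20B*, with log2 fold changes of -0.26, -0.07, 0.07, 0.04 and 0.00. *KIF23*, *KIF20A* and *KIF18B*, at -0.30, -0.28 and -0.27, had GC contents of 41.6%, 48.2% and 58.4%.

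**Figure D4:**
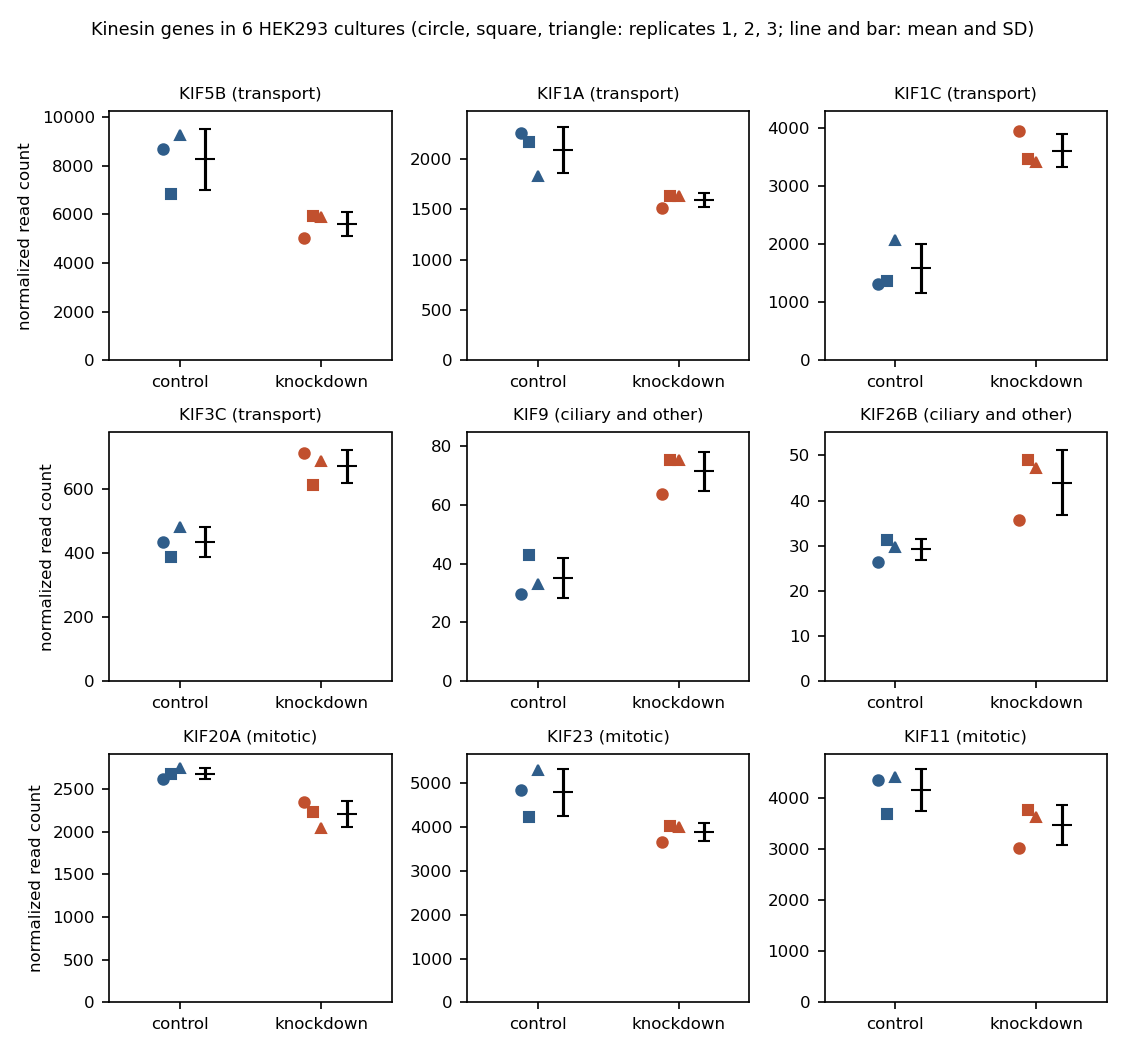
Normalized read counts (vertical axis, from 0) of 9 kinesin genes in the 3 control and 3 knockdown cultures, with circles, squares and triangles for replicates 1, 2 and 3 and a line and bar for the mean and SD. The genes are the 5 called members and KIF26B, KIF20A, KIF23 and KIF11, which were drawn for a small p in their class. The knockdown values lie apart from the controls in all but KIF11, where control replicate 2 lies within the knockdown values. This separation follows largely from the choice of genes. The groups did not overlap in 12 of all 34 members and in 32.2% of all genes tested.

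The 7 ciliary and other kinesins all had positive log2 fold changes, from 0.09 for *KIF27* to 1.01 for *KIF9*. That of *KIF27* turned to -0.10 without control replicate 2. Over all 14877 genes tested, 7040 were positive. *KIF3A*, *KIF3B* and *KIF17*, which also serve cilia but were classed as transport, had log2 fold changes of -0.23, 0.15 and 0.66. *KIF9* (chromosome 3, 47227998 to 47283451, minus strand), a kinesin of motile cilia and sperm flagella, had 63.6, 75.1 and 75.1 normalized counts in the knockdown cultures and 29.6, 42.8 and 32.9 in the controls. The groups were apart, and the level was low. The log2 fold change was 1.01 (SE 0.23, 95% CI 0.50 to 1.52, edgeR adjusted p = 0.0196), and the call was lost without knockdown replicate 1 (0.0526), 2 (0.0907) or 3 (0.0897) or control replicate 1 (0.0766). In GENCODE, 14.8% of the exon bases of *KIF9* lie opposite the antisense gene *KIF9-AS1*, which had 32, 29 and 29 reads after knockdown and 25, 39 and 23 in the controls, and the strand setting of the read counting is not given in the sources used here. *KIF26B*, which has no known ATPase activity and acts in kidney development, had 35.7, 49.0 and 47.2 normalized counts after knockdown and 26.5, 31.2 and 29.8 in the controls. The groups did not overlap, but the log2 fold change of 0.58 (SE 0.26, edgeR adjusted p = 0.169) was not called. *KIF24*, which restrains cilium growth, had 635, 587 and 616 after knockdown and 558, 415 and 547 in the controls, a log2 fold change of 0.28 (SE 0.13, edgeR adjusted p = 0.20). Exons of *KIF7* and *KIF2A* also overlap a gene on the opposite strand, *TICRR* and *DIMT1*, over 10.8% and 18.7% of their bases. *KIF7*, the Hedgehog pathway regulator of the ciliary tip, *KIF26A*, a relative of *KIF26B*, and *KIF6* overlapped between groups, with log2 fold changes of 0.14, 0.15 and 0.42. The SEs of *KIF6*, *KIF9*, *KIF17* and *KIF26B*, the members under 100 normalized counts in the controls, ran from 0.23 to 0.34, against 0.08 for *KIF22*.

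The spread between cultures was larger among the controls. The coefficient of variation of the normalized counts had a median of 6.44% over the 34 genes in the knockdown cultures and 12.3% in the controls, and it was larger in the controls for 30 of them, including all 15 transport genes. Control replicate 2 was the lowest control in 23 of the 34 genes. Over the whole table, the controls also lay further apart (0.369 to 0.485 log2 units) than the knockdown cultures (0.271 to 0.315). Such counts were not made over all genes, so they show no trait of the kinesin genes.

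**Figure D5:**
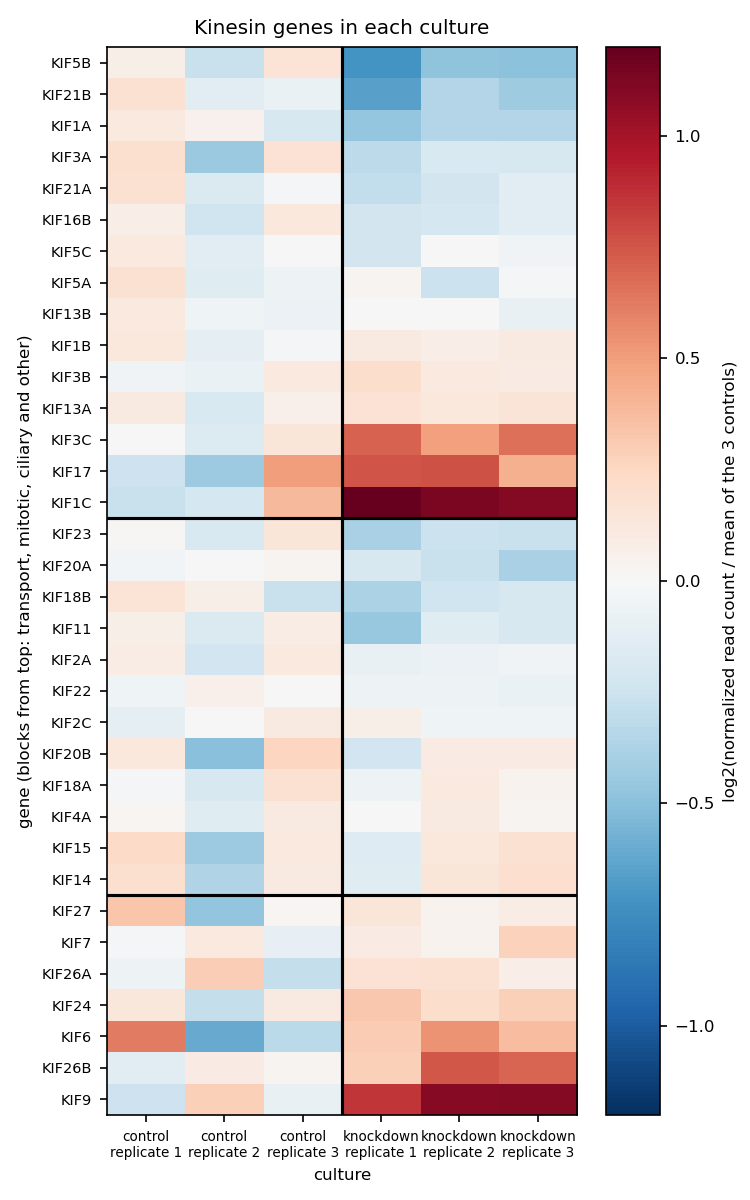
Each kinesin gene (rows, in blocks of transport, mitotic and ciliary or other genes) in each culture (columns), as log2 of its normalized read count over the mean of the 3 controls. Control replicate 2 lies below both other controls in 23 of the 34 genes, for example in KIF20B, KIF15, KIF27 and KIF3A.

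The partners of the motors were read from lists of their own. None of the 5 kinesins named outside the symbol rule (*CENPE*, *KIFC1*, *KIFC2*, *KIFC3* and *STARD9*) was called by edgeR, DESeq2 or limma-voom, and 0 of them had an unadjusted p under 0.05 with edgeR, while 1 was called without control replicate 3. Among 22 cargo adaptors and light chains of the transport kinesins, 1 rose and 0 fell. The called share was 4.55% there, 14.3% of the mitotic partners, 15.4% of the cell division markers and 13% of the dynein and dynactin genes, against 10% of all genes tested, so these counts are no result about the lists. The gene that rose was *PLEKHM2*, which links *KIF5B* to lysosomes, with a log2 fold change of 0.43 (edgeR adjusted p = 0.0141). Its call was lost without knockdown replicate 1 (0.0782) or 3 (0.0665) or control replicate 1 (0.053). The light chains *KLC1*, *KLC2*, *KLC3* and *KLC4* and the adaptor *KIFAP3* were not called. *KLC1* and *KLC4* had log2 fold changes of 0.24 and 0.25 (edgeR adjusted p of 0.105 and 0.125), without overlap between groups. *KLC2*, *KLC3* and *KIFAP3* overlapped, with log2 fold changes of 0.06, 0.17 and 0.09. The groups did not overlap in 32.2% of all genes tested. Of 14 mitotic partners, *TPX2*, the spindle assembly factor that binds *KIF11*, fell (log2 fold change -0.43, edgeR adjusted p = 0.0339), and *INCENP*, the scaffold of the passenger complex that *KIF20A* carries, rose (0.42, adjusted p of 0.046). The call of *TPX2* was lost without knockdown replicate 1 (0.116), 2 (0.122) or 3 (0.141) and without control replicate 1 (0.0981) or 3 (0.0686). That of *INCENP* was lost with the GC and length correction (0.0879) and when knockdown replicate 1 (0.158), 2 (0.135) or 3 (0.121) or control replicate 1 (0.151) was left out. *TPX2* had 3775, 3774 and 3679 normalized counts after knockdown and 5057, 4223 and 5835 in the controls, and control replicate 2 was the lowest control there too. Among 13 cell division markers, 2 fell, namely *CDK1*, the mitotic kinase (log2 fold change -0.47, adjusted p of 0.0071), and *CDKN1A*, the cyclin-dependent kinase inhibitor p21 (-1.04, adjusted p of 0.00154), which restrains division. The call of *CDK1* was lost without knockdown replicate 3 (0.0565), and that of *CDKN1A* was kept in all 14 alternatives. The other 11 were not called. Among them, *MKI67* and *TOP2A* had log2 fold changes of -0.05 each, and *CCNA2* and *BUB1* of -0.22 and -0.14. Of the 13 markers, 11 had negative and 2 positive log2 fold changes, against 7837 and 7040 of all genes tested. The positive ones were *MYBL2* (0.11) and *FOXM1* (0.01). The groups did not overlap in 4 markers, all lower, against 32.2% of all genes tested. *CDKN1A*, which restrains division, is among the 11 negative markers and among these 4. In the motor of the opposite direction, 23 of 24 listed genes of dynein, dynactin and their adaptors were tested, of which 2 rose and 1 fell. *BICD2*, a cargo adaptor of dynein, had 1806, 1747 and 1650 normalized counts after knockdown and 598, 619 and 726 in the controls, a log2 fold change of 1.42 (SE 0.10, edgeR adjusted p = 3.78e-05). *DCTN1*, the large dynactin subunit, rose by 0.37 (adjusted p of 0.0409), and *DYNC1LI2*, a light intermediate chain, fell by 0.48 (adjusted p of 0.023), both on the log2 scale. The call of *DCTN1* was lost with the replicate block (0.0533), without knockdown replicate 1 (0.155), 2 (0.115) or 3 (0.138) and without control replicate 1 (0.135). That of *DYNC1LI2* was lost without knockdown replicate 1 (0.114), 2 (0.0763) or 3 (0.0583) and without control replicate 1 (0.0892) or 3 (0.0518). *BICD2* was called in all 14 alternatives.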

How the data were processed

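RNA-seq was performed on 3 knockdown and 3 control cultures of HEK293 cells. The authors deposited whole-number read counts per gene without normalization. The submitters' processing notes name FastQC 0.11.9, Trim Galore 0.6.6, STAR 2.7.9a, featureCounts 2.0.1 and hg38, while the study's methods give other versions of STAR and featureCounts and add a step that removed ribosomal RNA. The gene annotation, strand setting and handling of multi-mapping reads are not given in the sources used here. The labels say stranded libraries from polyA RNA.

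Counts of all 26485 genes were filtered with filterByExpr (14877 kept, including all 34 members), scaled by TMM, and compared between groups by the robust quasi-likelihood test of edgeR 4.0.16 in R 4.3.3. P values were adjusted by Benjamini-Hochberg over all genes tested, with a threshold of 0.05. Confidence intervals use the degrees of freedom of that test. The study describes its knockdown work as 3 independent biological experiments in each group, and the labels do not say whether these cultures are those experiments. The p values test the group difference against the variation between cultures, which was estimated with information shared across genes. The biological coefficient of variation was 12.4%. Coordinates, transcript length and GC content come from GENCODE release 44 (23161 names matched by symbol and 1327 by synonym), and promoters from RefSeq.

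Classes and partner lists hold textbook roles, and every member is named. Values per culture are given for called members, and for the 3 members with the smallest p in a class with fewer than 3 calls. *KIF14* and *KIF3A* were also given per culture, chosen after their values were seen. Partners are given values only where called, except *MKI67*, *TOP2A*, *CCNA2*, *BUB1*, *MYBL2*, *FOXM1*, the light chains and *KIFAP3*, which were chosen after their values were seen. Members and lists were chosen with earlier results of these data known. Alternatives were scaling by DESeq2 size factors or by library size, testing unfiltered counts or genes with a minimum of 10 everywhere, blocking on replicate number, the Wald test of DESeq2 1.42.0, limma-voom (limma 3.58.1), a loess adjustment for GC content and length (span 0.3), and leaving out each culture. The tests were first run on simulated counts with known changes. Figures were drawn with matplotlib 3.10.9 in Python 3.11.15.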

Additional observations from a re-analysis of the deposited data

How the results depend on the processing

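Of 476 log2 fold changes of single kinesin genes under 14 alternatives, 430 kept their direction and their side of the threshold, 15 lost a call, 12 gained one and 19 changed sign, the latter in 10 genes that were not called. DESeq2 size factors, library sizes alone, both other filters, the DESeq2 Wald test and limma-voom gave every list a count within 1.5 times that reported. After the GC and length correction, 6 kinesin genes were lower (3 mitotic), 2 transport partners lower and 2 higher, 0 mitotic partners higher and 2 dynein and dynactin genes lower, with 1434 lower and 1420 higher over all genes, against 690 and 804. Replicates with the same number deviated from their group means with r of -0.20, -0.11 and -0.04, and no number correlated best with itself. Deviations from the mean of 3 cultures depend on each other, so these values cannot show whether cultures were paired. With the replicate block, 1 kinesin gene (transport) was lower and 1 dynein and dynactin gene higher. Blocks followed the replicate numbers in the labels. The cultures numbered 1, which are knockdown replicate 1 and control replicate 3, therefore fell in different blocks.

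When each culture was left out in turn, the number of kinesin genes called lower ranged from 0 to 8 and higher from 1 to 4. The number of mitotic genes called lower ranged from 0 to 3, of transport genes lower from 0 to 5 and higher from 1 to 3, and of ciliary or other genes higher from 0 to 1. Mitotic partners ranged from 0 to 4 lower and 0 to 2 higher, cell division markers from 1 to 3 lower, transport partners from 0 to 1 lower and 0 to 3 higher, and dynein and dynactin genes from 0 to 1 lower and 1 to 2 higher. Over all genes, 233 to 1238 were lower and 289 to 1274 higher. The highest counts of lower genes came without control replicate 2. The median log2 fold change ranged from -0.07 to 0.07 over the kinesin genes, from -0.14 to 0.03 over the mitotic and from -0.14 to 0.03 over the transport genes, so none of these medians kept its sign. The median of the ciliary or other class was not followed in these fits.

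In the same fits the log2 fold change ranged from -0.10 to 0.30 for *KIF27*, from -0.080 to 0.18 for *KIF14*, from -0.022 to 0.11 for *KIF4A*, from -0.12 to 0.19 for *KIF15*, from -0.051 to 0.14 for *KIF18A*, from -0.064 to 0.054 for *KIF2C*, from -0.20 to 0.16 for *KIF20B*, from -0.14 to 0.027 for *KIF5A* and from -0.053 to 0.034 for *KIF13B*. It turned to 0.0043 for *KIF2A* with the GC and length correction and to -6e-04 for *KIF20B* with no filter. The cause was not tested. At this depth, the members under 100 normalized counts had the widest intervals.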
